A study of Mus musculus with 8 samples.

Results

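The 9 genes *Ms4a1*, *Cd22*, *Cd72*, *Ptprc*, *Cd24a*, *Spn*, *Cd93*, *Cr2* and *Fcer2a* encode surface proteins by which stages of B cell development are told apart. They were taken by name from the GENCODE annotation of the mouse genome (GRCm38), where all 9 were found among 21938 protein-coding genes. The mark measured was 5-hydroxymethylcytosine (5-hmC), the first product when TET enzymes oxidize methylated cytosine. It was mapped in pro-B cells by hMeDIP-seq, in which sheared DNA is pulled down with an antibody against 5-hmC and sequenced. There were 2 wild-type and 2 HDAC7-deficient libraries. HDAC7-deficient mice were Hdac7 fl/- and carried mb1-Cre, a Cre recombinase driven by the B-lineage gene *Cd79a*, and the mice called wild-type were their Hdac7+/- littermates, so that every mouse of either group had a null allele of *Hdac7*. All were C57BL/6 mice aged 4 to 6 weeks, and the cells were sorted from bone marrow as B220+CD43+IgM-. The labels do not say whether the replicates came from separate mice or pools. DNA peaks give no RNA or protein level, so the labelled cell type could not be checked against the expression of its markers.

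Surface markers are gained and lost in order as a B cell matures. CD43 (*Spn*), a sialomucin, CD93, a receptor of the C-type lectin family that marks immature B cells, and CD24 (*Cd24a*), a small glycoprotein linked to the membrane by lipid, are high on progenitors and early B cells, and here form the progenitor group. CD45 (*Ptprc*), the tyrosine phosphatase whose long form is B220, CD22 and CD72, both inhibitory co-receptors of the B cell receptor, and CD20 (*Ms4a1*), a membrane-spanning protein, form the B-lineage group, although CD45 is on nearly all blood cells and CD20 appears later than B220. CD21 (*Cr2*), the complement receptor, and CD23 (*Fcer2a*), the low-affinity receptor for IgE, are found on mature B cells. B220 and CD43, products of 2 of the 9 genes, were thus also used to sort the cells. 5-hmC in gene bodies and at enhancers is known to accompany active genes in many cell types.

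Each gene was measured over its body with 5 kb on each side, which is called its window. Peak bases are the bases of the window that lie under a peak of a library, and for each measure the values of replicates 1 and 2 are given in that order, wild-type before HDAC7-deficient. Stretches that lay under a peak in all 4 libraries are the parts of these genes where the signal recurred. Those shown here are the longest of their genes. They are written 5′ to 3′ on the strand of the gene, from the RefSeq copy of GRCm38, with each CpG in capitals, since CpG is where nearly all 5-hmC of such cells is expected to lie. In the promoter of *Cd22*, the longest shared stretch of that gene was 360 bp wide and held no CpG, and its middle 300 bp (chr7:30880976-30881275, minus strand) are shown. The intronic stretch of *Fcer2a*, at 495 bp the widest of the 9 genes, is shown by its middle 300 bp (chr8:3685172-3685471, minus strand). *Cd72* (intron, chr4:43453974-43454125, minus strand), *Cd24a* (upstream flank, chr10:43576867-43577146, plus strand) and *Ms4a1* (intron, chr19:11265189-11265484, minus strand) are shown whole.
Cd22 promoter: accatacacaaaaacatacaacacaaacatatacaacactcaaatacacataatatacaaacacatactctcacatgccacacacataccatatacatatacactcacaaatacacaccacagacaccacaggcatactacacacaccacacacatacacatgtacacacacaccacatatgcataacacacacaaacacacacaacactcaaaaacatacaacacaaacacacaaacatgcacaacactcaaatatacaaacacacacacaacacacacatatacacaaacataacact
Fcer2a intron: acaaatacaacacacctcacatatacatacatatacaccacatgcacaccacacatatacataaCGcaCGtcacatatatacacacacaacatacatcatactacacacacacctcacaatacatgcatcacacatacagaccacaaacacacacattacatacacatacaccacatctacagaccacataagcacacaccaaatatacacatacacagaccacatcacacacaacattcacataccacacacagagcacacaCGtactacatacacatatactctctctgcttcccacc
Cd72 intron: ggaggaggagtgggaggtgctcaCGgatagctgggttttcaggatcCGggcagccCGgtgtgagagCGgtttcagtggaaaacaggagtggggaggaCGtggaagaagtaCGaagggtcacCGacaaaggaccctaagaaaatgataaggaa
Cd24a upstream flank: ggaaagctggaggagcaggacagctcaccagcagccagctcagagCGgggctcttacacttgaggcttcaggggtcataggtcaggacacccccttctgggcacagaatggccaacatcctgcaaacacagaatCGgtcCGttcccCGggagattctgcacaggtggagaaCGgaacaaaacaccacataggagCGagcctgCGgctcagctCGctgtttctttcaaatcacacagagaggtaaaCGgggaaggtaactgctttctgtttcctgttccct
Ms4a1 intron: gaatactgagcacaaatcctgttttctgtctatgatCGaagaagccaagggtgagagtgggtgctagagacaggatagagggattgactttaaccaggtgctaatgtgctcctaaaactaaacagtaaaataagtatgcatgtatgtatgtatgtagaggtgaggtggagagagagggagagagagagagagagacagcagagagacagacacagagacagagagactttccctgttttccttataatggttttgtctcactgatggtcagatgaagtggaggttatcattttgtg
The *Cd22* and *Fcer2a* stretches were made mostly of C and A in short alternating runs, and 95.0% and 89.0% of the bases shown were soft-masked as repeats. The *Cd72* and *Cd24a* stretches held 7 and 9 CpG in 152 and 280 bp. The *Ms4a1* stretch held 1 CpG and a run of alternating G and A.

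All 9 genes carried 5-hmC peaks in every library, which is usual, since the median gene of their length held at least 9 peaks. Most of the 9 genes had more peak bases than genes of their length did. In the window, the median of the 9 genes was 158 and 148 peak bases per kb in the wild-type libraries, against 147 and 155 without HDAC7. The median of all protein-coding genes was 92.4 and 107, against 91.2 and 102. Each gene was then ranked among all coding genes of like length, those no more than 25% longer or shorter than itself. There were 1400 such genes for *Ptprc* and between 2442 and 2987 for the others. The median rank of the 9 genes, on the mean of the 4 libraries, was percentile 87.3. The peak bases of 7 of the 9 genes were above the median of genes of like length in all 4 libraries, against 28.5% of all protein-coding genes, and *Cd24a* and *Cr2* were the 2 that were not. A total of 4 genes, *Cd22*, *Cd72*, *Ptprc* and *Fcer2a*, were at or above percentile 75 in all 4 libraries, against 8.88% of all genes, and 2 of them, *Cd22* and *Cd72*, at or above percentile 90, against 2.23%. Ranked by peak number instead, 6 genes were above the median in all 4 libraries. Only 2 were at or above percentile 75 and 1 at or above percentile 90. Of 21892 protein-coding genes ranked, 5952, 1744 and 382 met these conditions by peak number. In HDAC7-deficient replicate 1, *Cd72* was at percentile 72.8 and *Ptprc* at 70 by that measure. The limits of 75 and 90 were chosen after the values had been seen.

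**Figure D1:**
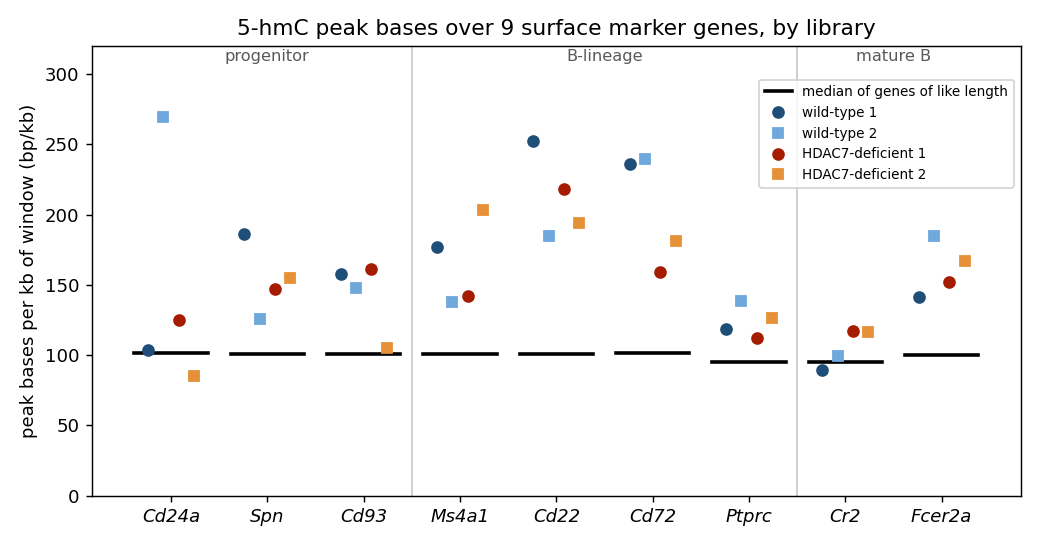
Peak bases per kb of window (vertical axis, bp/kb) for the 9 genes, grouped by stage. Each point is 1 library and each black bar the median of genes of like length, divided by the same window length. *Cd22* and *Cd72* run from 159 to 252 bp per kb and have the highest means, the single highest point is *Cd24a* in wild-type replicate 2, at 270 bp per kb, and the points of *Cr2* lie close to its bar.

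In the B-lineage group, *Cd22* and *Cd72* had the densest peak coverage of the 9 genes on the mean of the 4 libraries, although *Cd24a* was densest in wild-type replicate 2 and *Ms4a1* in HDAC7-deficient replicate 2. The window of *Cd22* (chr7:30860402-30885342, minus strand) held 6288 and 4603 peak bases in the wild-type libraries, against 5442 and 4843 without HDAC7, 2.11 times the median of genes of like length on average. The HDAC7-deficient libraries lay within the range of the wild-type ones. The window of *Cd72* (chr4:43441462-43459628, minus strand) held 4291 and 4346 peak bases in the wild-type libraries, against 2893 and 3289 without HDAC7, 2.01 times the median. Both HDAC7-deficient libraries were thus lower, yet still at percentiles 90.6 and 93.1 of genes of like length. These windows also reach other coding genes, *Ffar1* beside *Cd22* and *Tesk1* beside *Cd72*.

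*Ms4a1* (window chr19:11244675-11271241, minus strand) held 4699 and 3657 peak bases in the wild-type libraries, against 3774 and 5404 without HDAC7. The groups overlapped, and the highest value was that of HDAC7-deficient replicate 2, a library whose peaks covered 1.21 times the mean of the other libraries over the whole of chromosome 19. *Ptprc* (window chr1:138057861-138180708, minus strand), by far the longest of the 9 genes at 112848 bp, held 14571 and 17004 peak bases in the wild-type libraries, against 13801 and 15525 without HDAC7. Its values overlapped as well, although *Ptprc* was lower without HDAC7 within each replicate number and in both libraries after scaling by the chromosome mean, and its rank lay between percentile 80.2 and percentile 90.4.

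Among the progenitor genes, *Cd24a* differed most between libraries. *Cd24a* (window chr10:43573284-43589265, plus strand) held 1655 and 4311 peak bases in the wild-type libraries, against 1999 and 1364 without HDAC7. Wild-type replicate 2 stood apart here, at percentile 99.6 of genes of like length, and HDAC7-deficient replicate 2 was at 36.2, so the rank of this gene rests on the library. *Spn* (window chr7:127127232-127142823, minus strand) held 2899 and 1964 peak bases in the wild-type libraries, against 2292 and 2415 without HDAC7. *Cd93* (window chr2:148431640-148448563, minus strand) held 2666 and 2504 in the wild-type libraries, against 2728 and 1779 without HDAC7. Neither *Spn* nor *Cd93* separated the genotypes by peak bases.

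The mature B genes *Cr2* and *Fcer2a* ranked apart from each other. *Cr2* (window chr1:195131811-195181716, minus strand) held 4463 and 4960 peak bases in the wild-type libraries, against 5844 and 5801 without HDAC7, and was at percentile 64.3 on average, the lowest of the 9 genes. Both HDAC7-deficient libraries were above both wild-type libraries. *Fcer2a* (window chr8:3676737-3699175, minus strand) held 3175 and 4141 peak bases in the wild-type libraries, against 3417 and 3745 without HDAC7, at percentile 92.4 on average. Its genotypes overlapped, and its window also reaches *Trappc5*.

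**Figure D2:**
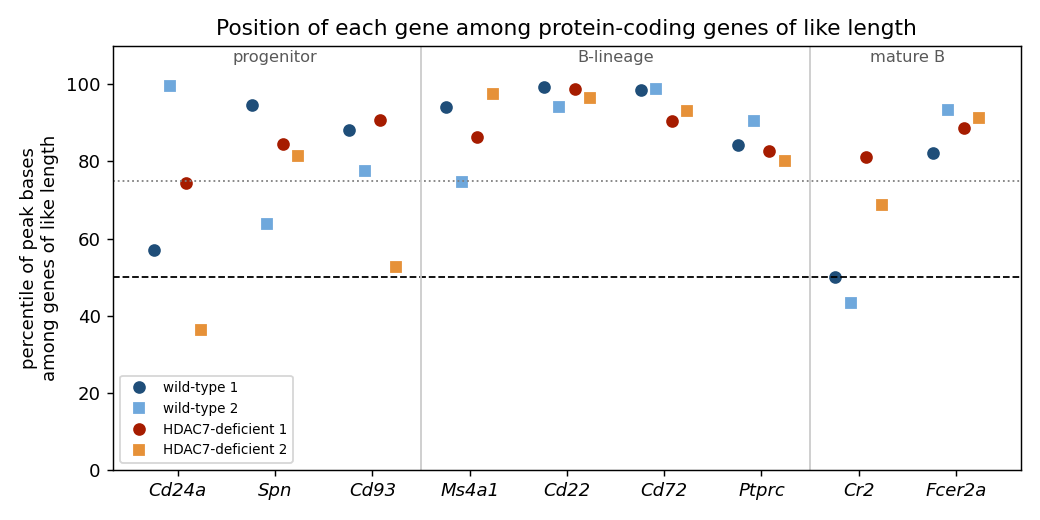
Percentile of the peak bases of each gene (vertical axis) among protein-coding genes of like length, by stage. Points are libraries, the dashed line is the median and the dotted line percentile 75. *Cd22* and *Cd72* stay above percentile 90 in all 4 libraries, and *Cd24a* runs from 36.2 to 99.6.

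The order of the genes by mean peak bases per kb was *Cd22* (212 ± 30.1, SD, n = 4 libraries), *Cd72* (204 ± 40.03), *Ms4a1* (165 ± 31.0), *Fcer2a* (161 ± 18.7), *Spn* (153 ± 24.9), *Cd24a* (146 ± 84.1), *Cd93* (143 ± 25.8), *Ptprc* (124 ± 11.2) and *Cr2* (106 ± 13.5). Each neighbouring pair in this order differed by less than the larger of their 2 SDs, except *Ptprc* and *Cr2*, which differed by more than either SD. By stage, the progenitor genes carried 149 and 181 peak bases per kb in the wild-type libraries, against 145 and 115 without HDAC7. The B-lineage genes carried 155 and 154 in the wild-type libraries, against 135 and 151 without HDAC7. The mature B genes carried 106 and 126 in the wild-type libraries, against 128 and 132 without HDAC7. The B-lineage genes were above the mature B genes in all 4 libraries, while the place of the progenitor genes changed. In wild-type replicate 2 and in HDAC7-deficient replicate 1 the progenitor genes were highest, and in HDAC7-deficient replicate 2 they were lowest. Of their bases, *Cd24a* alone gave 4311 of 8779 in wild-type replicate 2 and 1999 of 7019 in HDAC7-deficient replicate 1. Groups of 2 to 4 genes are not replicates of a stage, and no test was made.

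The comparison of the genotypes asks whether loss of HDAC7, a class IIa histone deacetylase that represses genes of other lineages in B cell progenitors, went with a change of 5-hmC at these genes. With 2 libraries a genotype the exact permutation test, two-sided, cannot give a p below 0.333, so this test could call no gene, and what follows are counts of genes whose groups did not overlap. Peak bases were higher in both HDAC7-deficient libraries at 1 of the 9 genes, *Cr2*, against 9.96% of all protein-coding genes, and lower in both at 1, *Cd72*, against 16.9%. Peak number was higher at 1, *Cr2*, against 11.9%, and lower at 2, *Cd72* and *Cd93*, against 10.8%. Counts of 1 or 2 in 9 are near these shares. Summed over the 9 windows, peak bases were 44707 and 47490 in the wild-type libraries, against 42190 and 44165 without HDAC7, and peaks numbered 244 and 239, against 237 and 227. Both sums were lower in both HDAC7-deficient libraries, while over all protein-coding genes the peak bases per kb overlapped. By stage, the summed bases given above were lower in both for the progenitor and the B-lineage genes and higher in both for the mature B genes. Single genes weighed on these sums. The mean difference was 1111 bases at *Cr2* but -77 at *Fcer2a*, and -1301.5 at *Cd24a*, -331.5 at *Cd93* and -78 at *Spn*. In the B-lineage group it was 411 at *Ms4a1*, against -303 at *Cd22*, -1227.5 at *Cd72* and -1124.5 at *Ptprc*. No share over all genes stands beside these sums, and a difference by stage was not tested.

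*Cd72* had a mean of 4318.5 peak bases in the wild-type and 3091 without HDAC7, a difference of -1227.5 ± 283 (SD of the difference) and a ratio of 0.716. Its peaks numbered 23 and 23 in the wild-type libraries, against 14 and 19 without HDAC7. The mean bases per peak were 188 ± 1.69 in the wild-type and 190 ± 23.7 in the HDAC7-deficient libraries (SD, n = 2), so that the peaks were fewer while their bases per peak differed by less than the spread. Exons, introns, promoter and both flanks each had a lower mean without HDAC7, and of these 5 parts the introns, with 1048 and 948 bases against 569 and 755, and the promoter did not overlap between the genotypes. When only peaks with under 65% C+T on either strand were kept, a filter added after the sequences had been seen, the difference was -559.5 and the groups overlapped. When only peaks with at least 1 CpG were kept, likewise added, it was -1086.5 and they did not overlap.

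Of the 33 merged regions of *Cd72*, 1 had a peak in both wild-type libraries and in neither HDAC7-deficient library, against 2.41% of all regions. It spans part of an exon and an intron (chr4:43453160-43453408), and the 87 bp that both wild-type libraries covered (chr4:43453305-43453391, minus strand, with 2 CpG) are shown as the place where 5-hmC peaks of *Cd72* were seen in the wild-type alone.
Cd72 wild-type only: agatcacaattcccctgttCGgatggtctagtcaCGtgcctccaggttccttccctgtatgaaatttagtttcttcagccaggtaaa
This region accounted for -168 of the difference of -1227.5 bases. Picked by its pattern, it could only lower the difference.

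*Cr2* had a mean of 4711.5 peak bases in the wild-type and 5822.5 without HDAC7, a difference of 1111 ± 353 and a ratio of 1.24, and its peaks numbered 26 and 29 in the wild-type libraries, against 35 and 30 without HDAC7. Of its 54 merged regions, 2 had peaks in both HDAC7-deficient libraries and in no wild-type library, against 2.92% of all regions. A region in an intron (chr1:195142010-195142504) was covered by 413 and 437 bases in the HDAC7-deficient libraries, and a region in the downstream flank (chr1:195132982-195133419) by 371 and 397, while no wild-type peak met either of them. Together these 2 regions gave 809 of the 1111 bases. Picked by this pattern, they add to the difference by construction. The middle 300 bp of the stretch that both HDAC7-deficient libraries covered in each (chr1:195142119-195142418 and chr1:195133069-195133368, minus strand) are shown. They are the places of *Cr2* where peaks were seen in both HDAC7-deficient libraries and in no wild-type library.
Cr2 intron: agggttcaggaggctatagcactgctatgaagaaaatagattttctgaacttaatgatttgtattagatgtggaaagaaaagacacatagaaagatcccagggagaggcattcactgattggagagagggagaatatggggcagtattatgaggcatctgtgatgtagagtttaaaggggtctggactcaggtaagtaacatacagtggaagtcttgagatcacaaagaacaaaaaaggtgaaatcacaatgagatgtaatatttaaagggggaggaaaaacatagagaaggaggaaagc
Cr2 downstream flank: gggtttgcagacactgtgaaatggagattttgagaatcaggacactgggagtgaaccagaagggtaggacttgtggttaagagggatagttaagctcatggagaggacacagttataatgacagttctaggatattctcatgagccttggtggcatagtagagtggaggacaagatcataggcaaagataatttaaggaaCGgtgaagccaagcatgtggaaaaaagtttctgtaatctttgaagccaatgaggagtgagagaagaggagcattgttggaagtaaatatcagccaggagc
The intronic sequence held no CpG and the flanking sequence 1. With a flank of 2 kb the difference was 390.5 and with the gene body alone 298.5, and in both settings the genotypes of *Cr2* overlapped. Among peaks that hold at least 1 CpG the difference was 504 and among peaks with under 65% C+T it was 1263, and under both of these filters the genotypes stayed apart.

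**Figure D3:**
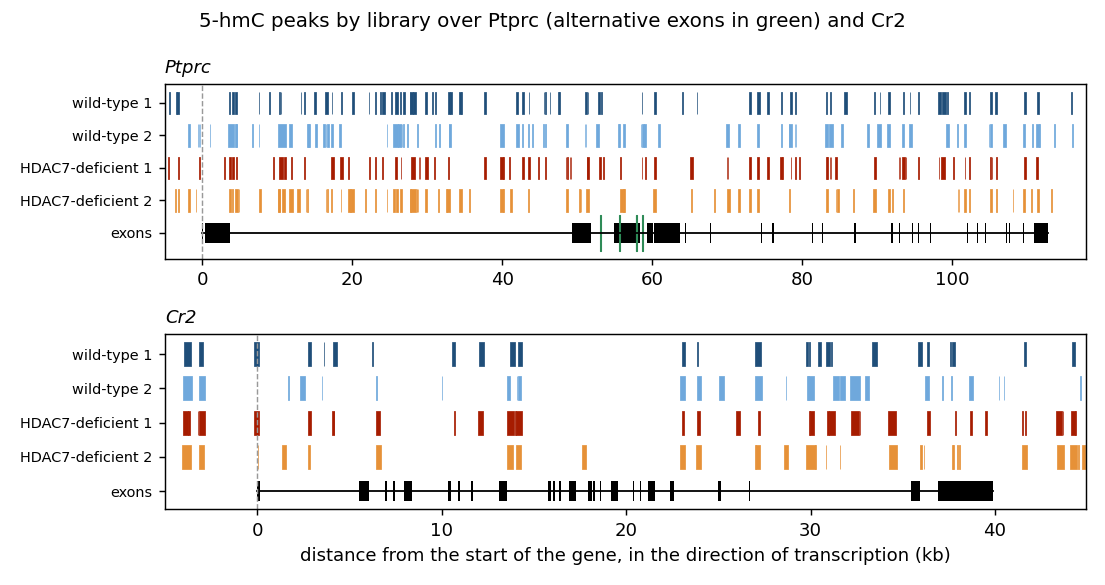
Peaks of each library (colored bars) over *Ptprc* and *Cr2*, by distance from the start of the gene in the direction of transcription (horizontal axis, kb), with exons of all annotated transcripts in black and the alternative exons of *Ptprc* in green. In *Cr2* the bars near 34 and 43 kb appear in the HDAC7-deficient rows alone.

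Promoters, taken as the 1000 bp before and the 100 bp after the start of the gene, were examined apart. Here 3 of the B-lineage genes stood out. The *Cd22* promoter held 808 and 586 peak bases in the wild-type libraries, against 434 and 675 without HDAC7, at percentile 99.8 of all promoters on average. The 360 bases that all 4 libraries covered there are the stretch shown above, which held no CpG and was 95.6% soft-masked as repeat. The *Ms4a1* promoter held 839 and 542 in the wild-type libraries, against 283 and 361 without HDAC7, at percentile 99.1. The *Cd72* promoter held 516 and 487 in the wild-type libraries, against 139 and 467 without HDAC7, at percentile 97.1. Most promoters hold little: the median over all protein-coding genes was 15, 15, 24 and 0 bases in the 4 libraries. The other 6 promoters lay between percentile 43.3 (*Spn*) and 79.9 (*Fcer2a*). *Ptprc* had 0 and 110 promoter bases in the wild-type libraries, against 217 and 17 without HDAC7. In a window as long as that of *Ptprc*, a promoter could give only a small part of the peak bases, whatever its coverage.

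Promoter bases were lower in both HDAC7-deficient libraries at 3 of the 9 genes, *Ms4a1*, *Cd72* and *Spn*, against 10.4% of all promoters. They were higher in both at 1, *Cd93*, against 8.43%. A promoter without peak bases in a wild-type library cannot count as lower. The share of all promoters is thus not that of promoters as covered as those of *Ms4a1* and *Cd72*. A count of 3 in 9 was not tested. The *Spn* values were small, 75 and 74 against 56 and 13. The *Cd93* promoter held 63 and 194 in the wild-type libraries, against 298 and 240 without HDAC7.

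**Figure D4:**
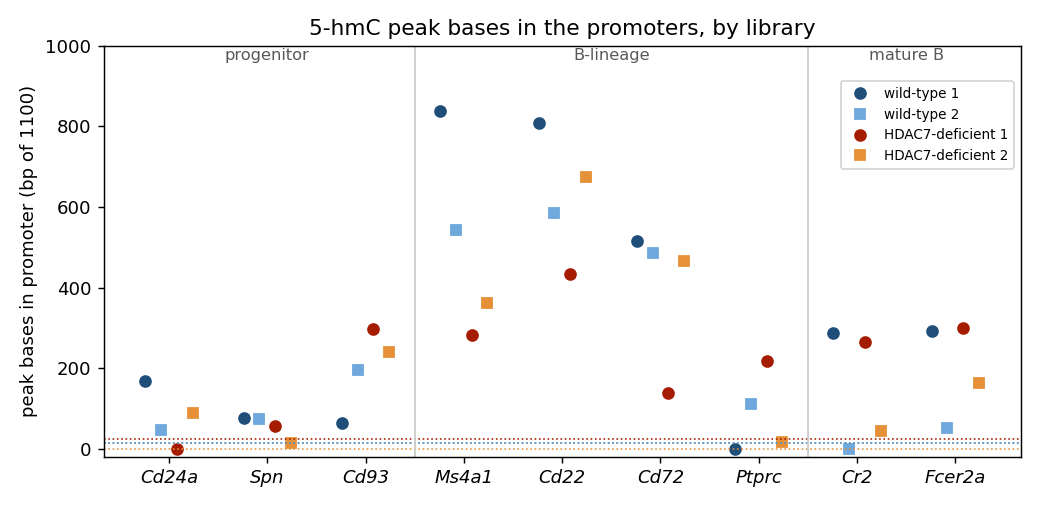
Peak bases in the 1100-bp promoter of each gene (vertical axis, bp) by stage. Points are libraries, and dotted lines give the median of all protein-coding promoters in each library, between 0 and 24 bp. *Ms4a1*, *Cd22* and *Cd72* lie far above these lines, and both HDAC7-deficient points of *Ms4a1* are below both wild-type points.

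At *Ms4a1* the start and the introns of the gene differed between the genotypes in opposite directions. Positions here count from the start of the gene, and the regions named were picked with their values known. The region from -118 to 357 bp held 321 and 342 peak bases in the wild-type libraries, against 25 and 56 without HDAC7. The next region upstream, from -1029 to -243 bp, held 621 and 486 against 258 and 315, and a region from -3197 to -2662 bp held 399 and 411 against 144 and 190. In all 3 regions both HDAC7-deficient libraries were lower. In the introns the values were 1881 and 1324 in the wild-type libraries, against 1921 and 2893 without HDAC7. Both HDAC7-deficient libraries were higher there, replicate 1 by little and replicate 2, the library with more peaks over all of chromosome 19, by more, and the sum over the window overlapped.

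**Figure D5:**
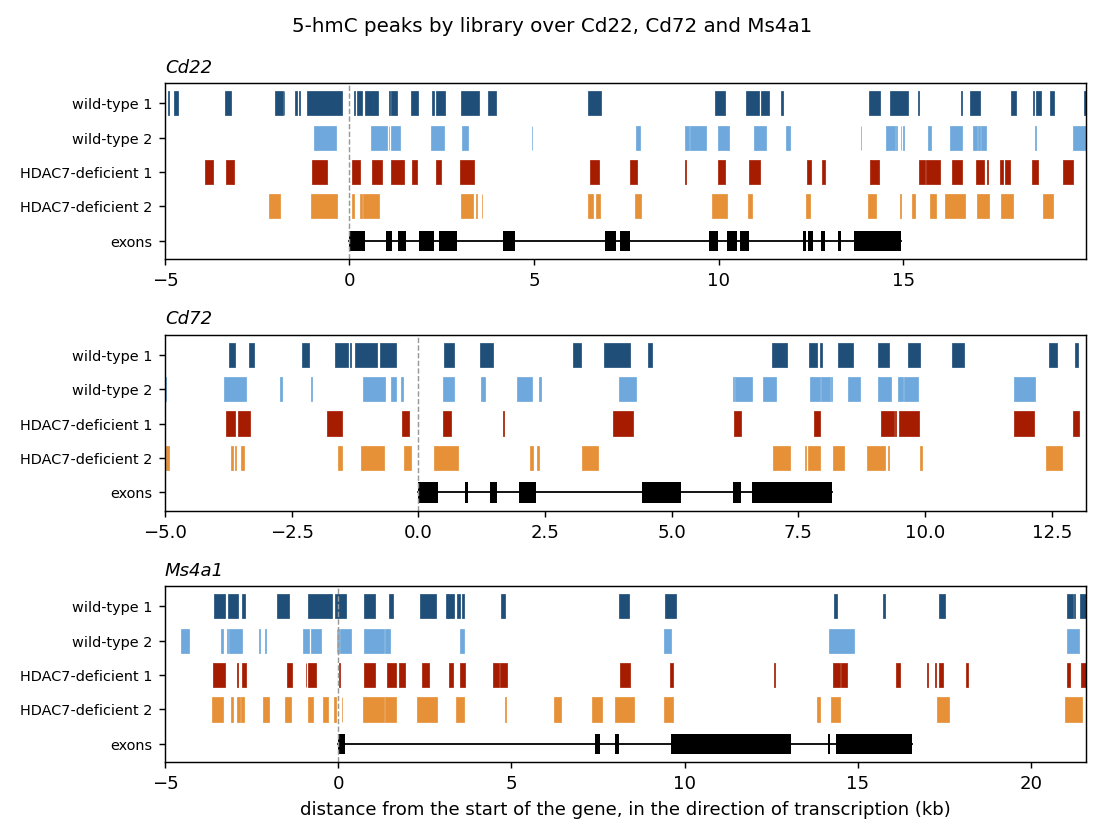
Peaks of each library (colored bars) over *Cd22*, *Cd72* and *Ms4a1*, by distance from the start of the gene in the direction of transcription (horizontal axis, kb), with exons of all annotated transcripts in black. Just upstream of *Cd22* a peak block, which holds the shared stretch without CpG, is present in all 4 rows. Around the start of *Ms4a1* the wild-type bars are wider than the HDAC7-deficient ones.

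Peaks of the 4 libraries that shared at least 1 bp were merged into regions, of which 414 lay in or reached into the 9 windows. A peak of all 4 libraries was present in 64 of them (15.5%, against 12.5% of all regions on the chromosomes), of both HDAC7-deficient and no wild-type library in 7 (1.69%, against 2.92%), and of both wild-type and no HDAC7-deficient library in 15 (3.62%, against 2.41%). Regions seen in both libraries of replicate number 1 alone were more frequent, 19 (4.59%, against 4.43%), as were those of number 2 alone, 16 (3.86%, against 3.43%), and the crossed pairs of libraries had 8 and 11. Regions limited to a genotype were thus less frequent than regions limited to a replicate number. Of the 64 shared regions, the covered bases were higher in both HDAC7-deficient libraries in 6, against 12.9% of all shared regions, and lower in both in 9, against 17.5%. *Ms4a1* had 10 shared regions among 32, of which 3 were lower and 1 higher. *Ptprc* held 7 of the 15 regions seen in the wild-type alone, with 1165 and 2119 bases, and 4 of the 7 seen in HDAC7-deficient libraries alone, with 868 and 821 bases. The bases under a peak of all 4 libraries numbered 930 at *Cd22*, percentile 96.7 of genes of like length, 789 at *Fcer2a*, 94.9, and 768 at *Ms4a1*, 91.5. *Spn* had 219, percentile 59.6, although its total coverage ranked at 87.3.

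*Ptprc* makes its B220 form by keeping exons that other blood cells skip. The exons that some of its 5 coding transcripts leave out are numbers 4, 5, 6 and 7 in the transcript that holds all of them. Exon 4 (chr1:138122456-138122584) had 102 and 0 peak bases in the wild-type libraries, against 124 and 0 without HDAC7. Exon 5 (chr1:138120020-138120166) had 133 peak bases and exon 7 (chr1:138116954-138117025) had 72, in wild-type replicate 2 alone. Exon 6 (chr1:138117754-138117894) had no peak within 500 bp in any library. No alternative exon therefore lay under peaks of both libraries of a genotype, and the same held for nearly all the other exons of the coding transcripts, except the last exon and the one before it, so the alternative exons did not differ from most others. The introns of *Ptprc* held 12657 and 14627 of its peak bases in the wild-type libraries, against 11725 and 12781 without HDAC7, the larger share in each.

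Low CpG density did not go with low peak coverage at *Ptprc* and *Ms4a1*. *Ptprc*, with 5.67 CpG per kb, and *Cr2*, with 4.91, were at percentiles 3.93 and 4.197 of genes of like length for CpG density, and *Ms4a1*, with 6.51, at 11.1, while *Cd72*, with 22.0, and *Cd24a*, with 21.6, were at 89.7 and 87.3. *Ptprc* and *Ms4a1* nevertheless ranked at percentiles 86.7 and 93.6 for peak bases. Over the 9 windows, 16.0% and 16.5% of the CpG lay under peaks in the wild-type and 14.9% and 16.2% in the HDAC7-deficient libraries, against 9.11%, 10.4%, 8.88% and 9.97% over the chromosomes. Peaks of the 9 genes held 9.67 to 10.2 CpG per kb, 1.09 to 1.15 times their windows as a whole. Single genes differed in this. Peaks were poorer in CpG than the window in every library at *Cd24a*, *Cd22* and *Fcer2a*. They were richer in every library at *Spn*, *Ms4a1*, *Ptprc* and *Cr2*, and *Cd93* and *Cd72* varied between libraries.

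The shared stretches had a marked composition. There were 69 of them in the windows, from 2 to 495 bp wide, and 32 held no CpG. Of the 40 that were at least 50 bp wide, 21 (52.5%) had at least 65% C+T on either strand in the 150 bp around their middle, against 7.58% of 150-bp tiles of the same windows. Over the chromosomes the shares were 59.2% of shared stretches and 7.40% of tiles, so the 9 genes did not stand above the genome in this. In *Cr2*, 3 shared stretches of at least 100 bp were wholly soft-masked and had the run actcctgcttcctg in common, which occurs 7281 times, on either strand, in the chromosomes of GRCm38. Antibody pull-down of DNA is known to recover short tandem repeats whatever their modification, and its part in these peaks was not tested. The share of peaks that stayed below 65% C+T differed between replicate numbers, with 60.99% and 76.3% in the wild-type and 62.0% and 73.9% in the HDAC7-deficient libraries over the genome. Alternating C and A, as in the stretches of *Cd22* and *Fcer2a*, stays below this limit, so the filter does not take out such repeats. When only peaks below 65% C+T were kept, *Cd22* was at percentile 97.5, *Cd72* at 99.0, *Ms4a1* at 94.7 and *Ptprc* at 76.1. When only peaks with at least 1 CpG were kept, they were at 98.9, 98.7, 91.3 and 73.9, and *Cr2* was at 46.8.

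Other B cell surface genes ranked much as the 9 genes did. In a list of 30, all of which were measured, the median rank on the mean of the 4 libraries was percentile 91.2, and 13 (43.3%) were at or above percentile 75 in all 4 libraries. The highest was *Cd37*, a tetraspanin of leukocytes, with 335 and 265 peak bases per kb in the wild-type libraries, against 274 and 315 without HDAC7. The lowest was *Cd81*, also a tetraspanin, with 76.6 and 84.2 in the wild-type libraries, against 84.9 and 66.3 without HDAC7. Peak bases were higher in both HDAC7-deficient libraries at 3 of the 30, against 9.96% of all genes, and lower at 8, against 16.9%, and peak number was higher at 4, against 11.9%, and lower at 4, against 10.8%. Of 17 surface genes of other blood cells, such as myeloid, T and erythroid cells, 5 (29.4%) were at or above percentile 75 in all 4 libraries, and their median rank was percentile 80.3. Peak bases were higher without HDAC7 at 1 of these 17 and lower at 3. Whether the 9 genes differ from either list was not tested.

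The peak lists held between 1305200 and 1414862 peaks a library. HDAC7-deficient replicate 2 stood apart, with peaks that covered 1.18 to 1.26 times the mean of the other libraries on chromosomes 14 to 19 and 2.05 times on X and with 20 peaks on Y, where the others had 585 to 868, but 1.02 to 1.06 times on the chromosomes of the 8 genes other than *Ms4a1*. The lists give no read counts, and how deeply a peak was sequenced is not known. At *Hdac7* itself (window on chromosome 15) peak bases were 10594 and 9520 in the wild-type libraries, against 7487 and 9964 without HDAC7, which is no check of the labels, since the deleted exons were not located.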

How the data were processed

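Each of the 4 hMeDIP libraries had a list of peaks, and the inputs were not analysed here. The authors trimmed reads (Cutadapt 1.6, run through Trim Galore 0.4.2), mapped them to mm10 (with bwa per the methods, with Bowtie2 per the submitters' processing notes), removed duplicates with Picard, normalized coverage to RPKM with deepTools and called peaks per library with MACS2 bdgpeakcall. Peaks that met input peaks were removed; whether this preceded deposition is not stated. The deposited values are peak positions alone, with no height, score or count, so the count test of the study could not be fitted and precision per library is unknown. Genes were those of GENCODE M21, and sequences were read from GRCm38. Windows, ranks and regions were computed in Python 3.11.15 (pandas 2.3.3, NumPy 2.4.6) and drawn by matplotlib 3.10.9; code was tested on simulated data. All 9 genes are named, and of the list of other B cell surface genes the highest and lowest in mean peak bases per kb. Members and lists were chosen with earlier results of these data known. Alternatives were other flanks, peak widths, merging, midpoint assignment, chromosome scaling, other tolerances of length, other stages, a replicate block and each library left out, with 2 filters by sequence added later. P-values would measure the spread between libraries, which may be technical.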

Additional observations from a re-analysis of the deposited data

How the results depend on the processing

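The median rank of the 9 genes among genes of like length stayed high, from percentile 86.3 to 93.1 over the settings tried: it was 93.1 with a flank of 2 kb and 92.4 with a flank of 10 kb, against 87.3 with 5 kb, and between 86.9 and 90.5 when each library was left out. Single genes moved further: in the gene body alone *Cd93* was at 26.5 and *Cd24a* at 62.5, against 83.7 and 84.3, and *Cr2* was at 49.0 and 48.6 with flanks of 2 and 10 kb, against 64.3. *Cd72* had fewer peak bases in both HDAC7-deficient libraries, and a difference of the same sign, under every planned setting. *Cr2* kept the sign of its difference but overlapped in the gene body alone, with a flank of 2 kb and with peaks at least 200 bp wide. Groups that do not overlap stay apart when a library is left out or the replicate block is used. Those settings therefore could not change the result of either gene. The counts of genes that did not overlap moved more. Genes with more peak bases numbered 1, but 0 with a flank of 2 kb and 0 with peaks at least 200 bp wide, and 2 to 4 when a library was left out. Genes with fewer peak bases numbered 1, but 3 in the gene body alone, 2 after scaling by the chromosome mean of each library, 0 with peaks under 65% C+T, and 2 to 4 when a library was left out. Genes with more peaks numbered 1, but 0 with a flank of 2 kb, 2 with a flank of 10 kb, 2 with peaks within 100 bp merged, 0 with peaks that hold a CpG, 2 with peaks under 65% C+T, and 2 to 3 when a library was left out. Genes with fewer peaks numbered 2, but 1 in the gene body alone, with a flank of 2 kb, with peaks at least 200 bp wide and by midpoint, 3 with peaks within 100 bp merged, 4 after scaling, and 2 to 5 when a library was left out. Leaving out 1 library loosens the condition, so that more genes meet it. The mean over members gave the B-lineage genes 176 peak bases per kb, against 149 over their summed length, in which *Ptprc* weighs most. No label says that replicate numbers pair the samples, and the differences between replicates 1 and 2 in the 2 genotypes had a correlation of 0.0683 over 21938 genes, yet libraries of the same number were alike in total peak bases (235434671 and 229967837 for number 1, 269133198 and 273728392 for number 2) and in the share of peaks under 65% C+T. With the replicate block, 1 gene (*Cr2*) had more and 2 (*Cd72* and *Ptprc*) had fewer peak bases, and 3 (*Ms4a1*, *Ptprc* and *Cr2*) had more and 3 (*Cd93*, *Cd22* and *Cd72*) had fewer peaks. Elsewhere the cause of these changes was not tested. Of 252 differences of single genes under an alternative, 241 moved by less than 1 SD and 215 kept their sign. Part of these could not move by 1 SD, whatever the values. With 1 library left out a difference shifts by less than that SD, and the replicate block leaves it unchanged. Peak positions without heights limit every result to presence and width.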
